A study of Mus musculus with 6 samples.

Results

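DNA replication needs origins that are licensed once per cycle, forks that unwind and copy the strands, and enzymes that supply the nucleotides. The genes described here are 47 named members of that machinery, taken by symbol from a table of 55453 gene symbols and sorted into 9 steps: origin recognition, licensing control, the MCM helicase, helicase activation, the clamp and its loader, polymerases and primase, the single-strand binding protein, flap removal with ligation, and nucleotide supply. All 47 were found and all 47 passed the filter on low counts, among 14877 genes tested. RNA was measured by poly(A)-selected sequencing of SB28, a mouse glioma line, in 3 libraries labelled PP2AcKO, with the genotype PP2A KO, and 3 labelled PP2AcWT, with a wild-type genotype. PP2Ac is the catalytic subunit of protein phosphatase 2A. All 6 libraries carry the C57BL/6 strain label, and the labels give no treatment, no time, no way in which the gene was altered, and no word on clones or separate cultures. Whether the replicates were separate cultures is not stated, so every p-value below is set against library-to-library spread that could be technical. The series' design text instead speaks of wild-type hosts and hosts with PP2Ac deleted by LysM-driven Cre, which acts in myeloid cells, so the cells that carried the deletion are not settled by the labels.

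As background, the origin recognition complex marks origins in G1, and with CDC6 and CDT1 it loads the MCM helicase, while geminin blocks CDT1 once S phase has begun. The kinase CDC7 with its partner DBF4, together with cyclin-dependent kinases, then brings in CDC45 and GINS to make a running helicase. Polymerase alpha with primase starts each strand, replication factor C loads the PCNA clamp, polymerases delta and epsilon extend, and FEN1 and ligase I join the lagging-strand fragments. Many of these genes are transcribed from late G1 into S phase under E2F factors, so their messages are commonly read as a measure of cycling. In bulk RNA, fewer cells in S phase and less of a message per cell cannot be told apart.

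Several facts of the libraries bear on all values below. Totals ran from 40245915 to 46149908 counts in PP2AcKO and from 38735864 to 49344079 in PP2AcWT. Levels are given in CPM, counts scaled to the effective library size. Ppp2ca, which encodes PP2Ac, had 217, 187 and 193 CPM in PP2AcKO 1, 2 and 3, against 274, 244 and 247 CPM in PP2AcWT 1, 2 and 3 (log2 fold change -0.36, SE 0.08, adjusted p = 0.00377 by edgeR). The groups were separate, but most of the Ppp2ca count remained in the libraries labelled knockout. A count per gene does not show which exons its reads came from. Exons of 9430098F02Rik and Gm24157 on the opposite strand also overlap 41.3% of the Ppp2ca exon bases. Libraries numbered 1 stood apart within both groups. Of the 8 leukocyte markers, Cd3e and Adgre1 had no count, and the whole list summed to 4.75 to 5.29 CPM in PP2AcKO and 3.15 to 3.58 CPM in PP2AcWT. The endothelial list summed to 419 to 456 CPM in PP2AcKO and 399 to 431 CPM in PP2AcWT, nearly all from Cdh5, while Pecam1 averaged 0.344 and 0.282 CPM. Cdh5 and Pecam1 did not pass, whereas Kdr was higher, at 7.78 ± 0.402 CPM in PP2AcKO and 1.65 ± 0.331 CPM in PP2AcWT, and Tek lower, at 0.295 ± 0.036 and 1.40 ± 0.266 CPM. The 9 markers chosen for the glioma line summed to 3926 to 4027 CPM in PP2AcKO and 6786 to 6908 CPM in PP2AcWT. Of its tested markers 3 rose, Pdgfra, Nras and Pdgfb, and 3 fell, with Vim, at 1882 ± 64.7 CPM in PP2AcKO and 4791 ± 98.3 CPM in PP2AcWT, making up most of the difference in the sum. Nes and Sox2 also fell but were present, Olig2 had no count, and Gfap averaged 0.0809 CPM in PP2AcKO and 0.0393 CPM in PP2AcWT, so the glial markers Olig2 and Gfap were at or near 0. The part of these marker lists in the results below was not tested.

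The promoters of several members are shown first because they carry a sequence that many replication genes share, the E2F recognition sequence, and because members that moved and members that did not both carry it. The sequences are the 250 bases before the RefSeq gene start, build GRCm38.p6, written 5′ to 3′ on the strand of the gene, with E2F matches in capitals. Mcm6 (chr1:128359706-128359955, minus strand) and Mcm5 (chr8:75109259-75109508, plus strand) fell in PP2AcKO. Orc3 (chr4:34614943-34615192, minus strand) and Gins3 (chr8:95633309-95633558, plus strand) did not pass the test. Tk1 (chr11:117826015-117826264, minus strand) had the lowest fold change of the 47 and Rfc5 (chr5:117389024-117389273, minus strand) the lowest after Tk1 and Gmnn.
Mcm6: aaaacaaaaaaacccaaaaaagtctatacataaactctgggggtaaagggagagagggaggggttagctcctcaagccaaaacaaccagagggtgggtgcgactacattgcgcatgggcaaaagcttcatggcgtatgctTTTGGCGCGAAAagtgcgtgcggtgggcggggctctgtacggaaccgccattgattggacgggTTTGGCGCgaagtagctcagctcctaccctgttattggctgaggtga
Mcm5: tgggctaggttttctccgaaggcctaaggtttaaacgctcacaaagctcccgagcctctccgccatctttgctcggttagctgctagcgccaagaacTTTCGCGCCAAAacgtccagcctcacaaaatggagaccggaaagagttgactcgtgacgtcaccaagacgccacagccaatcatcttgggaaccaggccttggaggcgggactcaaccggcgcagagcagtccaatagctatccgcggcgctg
Orc3: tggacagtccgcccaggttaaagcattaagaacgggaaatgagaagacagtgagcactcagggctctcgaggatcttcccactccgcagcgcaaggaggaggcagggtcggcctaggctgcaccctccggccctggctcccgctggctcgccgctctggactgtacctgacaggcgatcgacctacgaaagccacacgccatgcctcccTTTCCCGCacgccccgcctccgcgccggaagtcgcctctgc
Gins3: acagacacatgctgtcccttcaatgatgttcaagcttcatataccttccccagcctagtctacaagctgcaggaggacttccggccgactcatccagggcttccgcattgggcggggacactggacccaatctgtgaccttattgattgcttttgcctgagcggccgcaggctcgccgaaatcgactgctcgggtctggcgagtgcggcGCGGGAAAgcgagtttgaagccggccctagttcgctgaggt
Tk1: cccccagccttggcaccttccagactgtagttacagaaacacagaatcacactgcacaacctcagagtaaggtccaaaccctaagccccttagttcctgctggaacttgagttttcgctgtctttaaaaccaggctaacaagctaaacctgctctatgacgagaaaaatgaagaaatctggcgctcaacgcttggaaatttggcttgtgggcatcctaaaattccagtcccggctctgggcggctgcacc
Rfc5: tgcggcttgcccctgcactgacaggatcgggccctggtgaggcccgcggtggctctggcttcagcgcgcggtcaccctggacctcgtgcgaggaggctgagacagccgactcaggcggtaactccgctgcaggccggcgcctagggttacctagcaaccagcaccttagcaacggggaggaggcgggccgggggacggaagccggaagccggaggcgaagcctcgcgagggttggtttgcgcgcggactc

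The E2F search used 4 spellings, TTTCCCGC, TTTGGCGC, TTTCGCGC and TTTGCCGC, on both strands, over 300 bases from 250 before to 50 after the gene start, and overlapping matches were counted separately. Mcm6 held 3 matches, of which the pair that overlaps begins 110 and 106 bases before the start and the other 47 bases before it. In Mcm5 a pair of overlapping matches began 153 and 149 bases before the start. Orc3 and Gins3 each held 1 match, beginning 41 bases before the start in both genes. No match lay in the windows of Tk1 and Rfc5, which says only that these letters are not there.

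A RefSeq promoter window was matched by symbol for 39 of the 47 members, and 7 of these have more than 1 window. At least 1 E2F match was present in 15 of the 39 (38.5%), against 500 of 10678 tested genes with a window (4.68%). The members that fell and the others did not separate by it: 10 of 28 that fell held a match (35.7%) and 5 of 11 that did not fall (45.5%). The CCAAT box, searched as CCAAT on both strands, was in 23 of the 39 members (59.0%) and in 43.2% of the tested genes. The cell cycle homology region, searched as TTTGAA on both strands, was in 7 (17.9%) and in 14.4%, and the NRF1 consensus, also on both strands, in 3 (7.69%) and in 11.2%. These matches describe letters and not bound sites.

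Most replication genes were lower in PP2AcKO, with the lowest median log2 fold changes in flap removal with ligation (-1.07), the single-strand binding protein (-0.999) and nucleotide supply (-0.95). Of the 47 members, 34 fell (72.3%), 2 rose and 11 did not pass, at an adjusted p below 0.05 from edgeR's quasi-likelihood test. Over all genes tested, 64.0% passed, 32.1% lower and 31.9% higher. The median log2 fold change of the members was -0.48, beside -0.01 over all genes. Every member of the polymerase, single-strand binding, flap removal and nucleotide steps fell, 18 of 18, whereas 1 of 6 members of the origin recognition complex did. Together the 47 genes took 0.249%, 0.246% and 0.247% of all counts in PP2AcKO 1, 2 and 3 and 0.373%, 0.358% and 0.363% in PP2AcWT 1, 2 and 3.

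All 3 PP2AcKO libraries lay below all 3 PP2AcWT libraries for 36 members and above them for 2, while 9 overlapped. Over all genes the groups did not overlap in 68.3%, with PP2AcKO below in 34.4%. At least 2-fold lower were 7 members, Tk1, Gmnn, Rfc5, Fen1, Mcm6, Rpa3 and Rrm1, against 10.7% of all genes. Against a fold change of 1.5 the test kept 15 of the 34 members that fell, which were these 7 with Rpa1, Pold1, Pola2, Rrm2, Gins2, Cdc7, Lig1 and Mcm5, and it kept neither of the 2 that rose. Over all genes that test called 13.2% lower and 13.5% higher. With the replicate number as a block, 38 fell and 4 rose, while the block called 38.8% of all genes lower and 38.5% higher. Without both libraries numbered 1 the member counts were 35 and 3, beside 37.1% and 37.5% of all genes. Between same-numbered libraries 40, 39 and 40 of the 47 members were lower in PP2AcKO for numbers 1, 2 and 3. The same count over all genes was not made. Each of the 34 that fell was lower in all 3 pairs, which adds nothing, since their groups did not overlap and any pairing gives this.

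**Figure D1:**
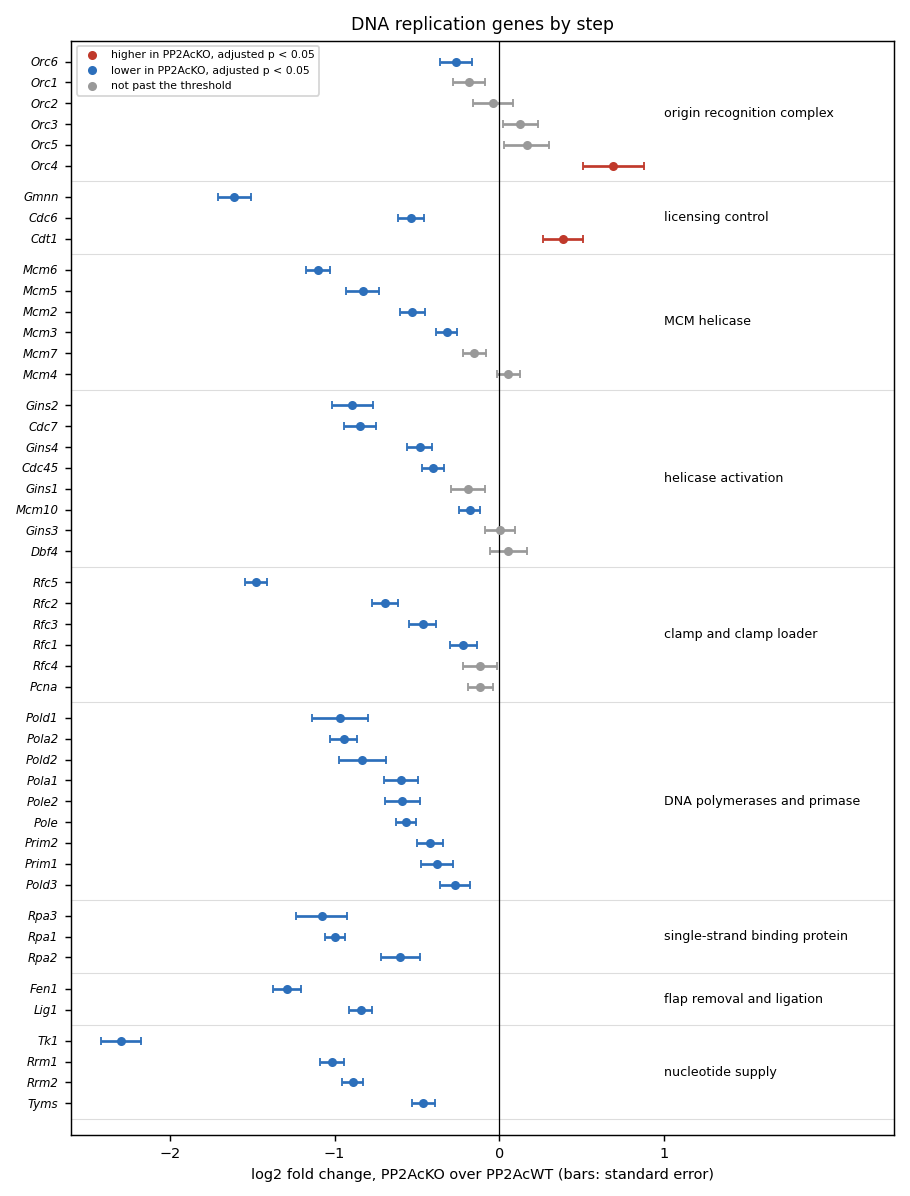
Log2 fold change of PP2AcKO over PP2AcWT (x axis) for each of the 47 genes (y axis), grouped by step, with points for the fitted value and bars for the standard error, n = 3 libraries a group. All points of the last 4 steps lie left of 0, with Tk1 at -2.30, while the origin recognition genes straddle 0, with Orc4 at 0.69.

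Nucleotide supply held the lowest fold change of the pathway. Tk1, the cytosolic thymidine kinase that salvages thymidine in S phase, had 15.1, 21.2 and 19.1 CPM in PP2AcKO 1, 2 and 3, against 86.3, 89.7 and 96.5 CPM in PP2AcWT 1, 2 and 3. The groups lay far apart, with means of 18.5 ± 3.06 and 90.8 ± 5.21 CPM (SD, n = 3 each; log2 fold change -2.30, SE 0.12, adjusted p = 5.2e-07), which is 4.92-fold lower. The gene lies on chromosome 11, 117815526 to 117826092, minus strand, GRCm38.

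Rrm1 and Rrm2, the large and the small subunit of ribonucleotide reductase, fell together. Rrm1 was at 92.2, 84.1 and 86.1 CPM in PP2AcKO and at 188, 169 and 173 CPM in PP2AcWT (log2 fold change -1.02, SE 0.07, adjusted p = 3.29e-06). For Rrm2 the values were 91.7, 90.1 and 91.1 CPM in PP2AcKO and 176, 164 and 166 CPM in PP2AcWT (log2 fold change -0.89, SE 0.06, adjusted p = 2.97e-06). In neither gene did the groups overlap, and their ratio within a library moved little: Rrm2 counts per Rrm1 count were 1.04 ± 0.0411 in PP2AcKO and 0.955 ± 0.0195 in PP2AcWT (SD, n = 3 each). Tyms, the thymidylate synthase that makes dTMP from dUMP, had the smallest fall of the step, with 32.8 ± 1.41 CPM in PP2AcKO and 45.1 ± 1.51 CPM in PP2AcWT (log2 fold change -0.46, SE 0.07, adjusted p = 0.000424). Summed over the 4 genes, the step stood at 231, 230 and 228 CPM in PP2AcKO and at 497, 468 and 479 CPM in PP2AcWT, a ratio of 0.477, the lowest of the 9 steps.

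The enzymes of lagging-strand maturation and the single-strand binding protein fell without exception. Fen1, the flap endonuclease, was at 27.3, 32.4 and 30.8 CPM in PP2AcKO and at 70.2, 75.5 and 75.6 CPM in PP2AcWT (log2 fold change -1.29, SE 0.08, adjusted p = 1.98e-06). Exons of Tmem258 and Gm10143 on the opposite strand cover 84.2% of the Fen1 exon bases, and the strand setting of the counting is not given in the sources used here, so reads of the pair may not be told apart. Tmem258 itself averaged 20.4 ± 1.59 CPM in PP2AcKO and 34.4 ± 2.54 CPM in PP2AcWT (log2 fold change -0.76, adjusted p = 9.41e-05). Lig1, the ligase that seals the fragments, had 48.2, 51.4 and 52.6 CPM in PP2AcKO and 86.5, 94.8 and 91.3 CPM in PP2AcWT (log2 fold change -0.84, SE 0.07, adjusted p = 9.17e-06). The groups were separate for both enzymes.

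Rpa1, Rpa2 and Rpa3 encode the large, middle and small subunits of replication protein A, which coats single-stranded DNA. Rpa1 stood at 82.1, 82.1 and 83.6 CPM in PP2AcKO and at 167, 159 and 170 CPM in PP2AcWT (log2 fold change -0.999, SE 0.06, adjusted p = 1.49e-06). Rpa2 had 17.0, 23.4 and 22.0 CPM in PP2AcKO and 31.6, 31.2 and 31.8 CPM in PP2AcWT (log2 fold change -0.60, SE 0.12, adjusted p = 0.00167), and Rpa3 had 5.02, 3.76 and 4.01 CPM in PP2AcKO and 10.7, 7.87 and 8.48 CPM in PP2AcWT (log2 fold change -1.08, SE 0.16, adjusted p = 0.000293). In each of the 3 genes the groups were separate, and PP2AcKO 1 was the lowest library for Rpa2 but the highest of its group for Rpa3.

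All 9 polymerase and primase genes fell, by 0.27 to 0.97 on the log2 scale, and none reached a 2-fold change. Pola2, the accessory subunit of polymerase alpha, had the smallest adjusted p, with 28.6, 32.3 and 29.0 CPM in PP2AcKO and 53.7, 59.5 and 59.7 CPM in PP2AcWT (log2 fold change -0.94, SE 0.08, adjusted p = 1.11e-05). Pole, the catalytic subunit of the leading-strand polymerase epsilon, was at 77.3, 73.2 and 73.6 CPM in PP2AcKO and at 112, 113 and 107 CPM in PP2AcWT (log2 fold change -0.57, SE 0.06, adjusted p = 5.71e-05). Pold2, an accessory subunit of polymerase delta, had 31.5, 44.6 and 40.2 CPM in PP2AcKO and 57.7, 74.2 and 75.1 CPM in PP2AcWT (log2 fold change -0.83, SE 0.14, adjusted p = 0.000863). The groups were separate for all 3 genes. Both libraries numbered 1 were the low ones of their groups for Pold2, and the same held for Pold1.

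Pold1, the catalytic subunit of polymerase delta, had the lowest fold change of the step at a log2 value of -0.97 (SE 0.17, adjusted p = 0.000902). Pola1, the catalytic subunit of polymerase alpha and the X-linked member of the set, averaged 67.7 ± 7.50 CPM in PP2AcKO and 102.5 ± 11.0 CPM in PP2AcWT (SD, n = 3 each). The primase genes Prim1 and Prim2 fell by 0.38 and 0.42 on the log2 scale, and Pole2, an accessory subunit of polymerase epsilon, fell by 0.59. Within a library, Pole2 counts per Pole count were 0.0782 ± 0.00462 in PP2AcKO and 0.0796 ± 0.00599 in PP2AcWT, so the pair fell in step. Pold3, an accessory subunit of polymerase delta, had the smallest fall of the 9 (log2 fold change -0.27, SE 0.09, adjusted p = 0.0253), and its call was lost without PP2AcKO 2, PP2AcKO 3, PP2AcWT 1 or PP2AcWT 3, with adjusted p up to 0.0906.

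**Figure D2:**
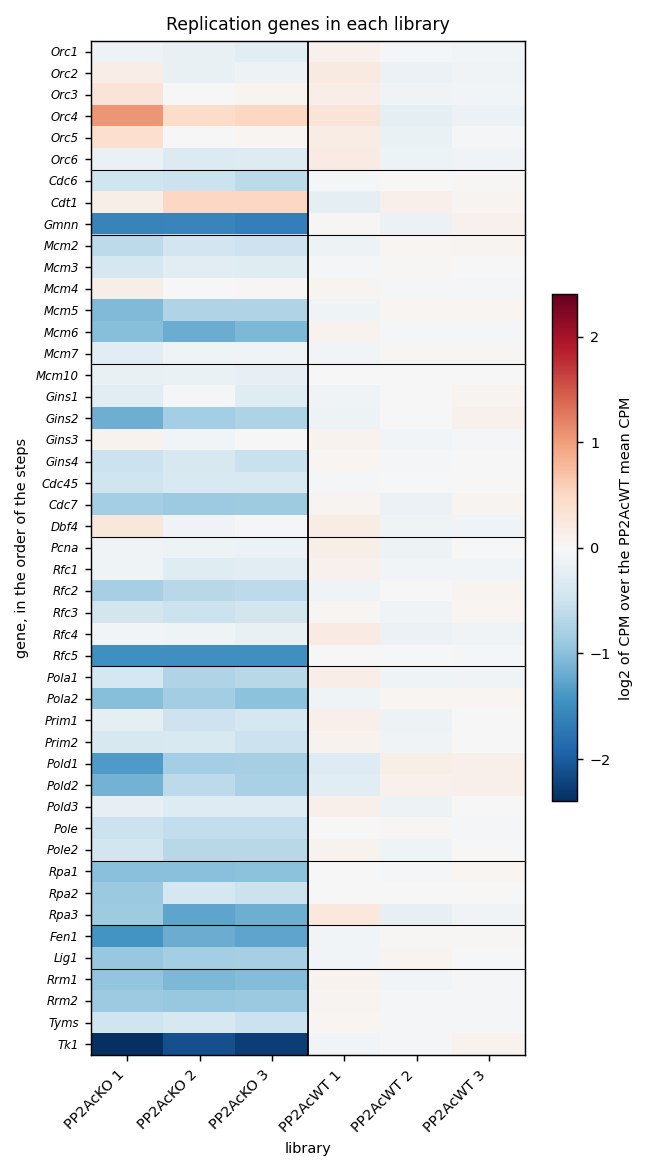
Log2 of the CPM over the PP2AcWT mean CPM (colour) for each gene (rows, in the order of the steps, separated by lines) in each library (columns). The 3 PP2AcKO columns are blue for most genes, darkest for Tk1, Gmnn and Rfc5, and red in all 3 for Orc4 and Cdt1, whose log2 fold changes were 0.69 and 0.39.

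Within the clamp loader, Rfc5 moved further than its partners. Replication factor C is a ring of a large subunit, Rfc1, and 4 small ones, Rfc2 to Rfc5, that opens PCNA and closes it round DNA. Rfc5 was at 17.0, 17.0 and 17.0 CPM in PP2AcKO and at 47.5, 47.7 and 46.5 CPM in PP2AcWT (log2 fold change -1.48, SE 0.07, adjusted p = 2.54e-07). Rfc2 had 32.0, 35.0 and 35.8 CPM in PP2AcKO and 52.4, 55.7 and 58.2 CPM in PP2AcWT (log2 fold change -0.69, SE 0.08, adjusted p = 5.58e-05), and Rfc3 had 14.9, 14.2 and 14.8 CPM in PP2AcKO and 20.6, 19.0 and 20.9 CPM in PP2AcWT (log2 fold change -0.46, SE 0.08, adjusted p = 0.000943). The groups were separate in all 3 genes, and the Rfc5 libraries varied least among themselves.

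Rfc5 counts per count of Rfc2, Rfc3 and Rfc4 together, a ratio that does not depend on scaling between libraries, were 0.232, 0.225 and 0.226 in PP2AcKO and 0.453, 0.476 and 0.441 in PP2AcWT. Rfc5 lies on chromosome 5, 117378103 to 117389047, minus strand, GRCm38, and 10.7% of its exon bases are shared with exons of Wsb2 on the other strand. Wsb2 fell too, with 114 ± 9.98 CPM in PP2AcKO and 152 ± 11.9 CPM in PP2AcWT (log2 fold change -0.41, adjusted p = 0.0031 by edgeR). With the strand setting not given, reads of this pair may not be told apart either. Rfc1 fell least (log2 fold change -0.22, SE 0.08, adjusted p = 0.0399), a call lost under DESeq2 size factors and without any 1 library other than PP2AcKO 1, with adjusted p up to 0.152. Rfc4 averaged 25.8 ± 1.05 CPM in PP2AcKO and 27.9 ± 3.55 CPM in PP2AcWT and did not pass (adjusted p = 0.333). Exons of Eif4a2 on the other strand overlap 12.65% of its exon bases, and Eif4a2 averaged 262 ± 17.2 CPM in PP2AcKO and 217 ± 17.5 CPM in PP2AcWT (log2 fold change 0.27, adjusted p = 0.0158). Lat2 overlaps Rfc2 in the same way over 15.1% of its exon bases, at 2.18 and 1.52 CPM. Pcna, the sliding clamp itself, had 141, 136 and 135 CPM in PP2AcKO and 163, 136 and 147 CPM in PP2AcWT, groups that overlapped, and did not pass (log2 fold change -0.11, SE 0.08, adjusted p = 0.227), though it passed with the replicate number as a block (adjusted p = 0.0221). Its pseudogene Pcna-ps2 had 26 to 30 counts in PP2AcKO and 29 to 34 in PP2AcWT.

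The MCM helicase subunits, which act as a ring of 6, did not move alike. Mcm6 was at 113, 100.3 and 108 CPM in PP2AcKO and at 243, 223 and 224 CPM in PP2AcWT (log2 fold change -1.10, SE 0.07, adjusted p = 2.13e-06). Mcm5 had 63.4, 79.4 and 79.7 CPM in PP2AcKO and 123, 136 and 137 CPM in PP2AcWT (log2 fold change -0.83, SE 0.10, adjusted p = 9.05e-05), and Mcm2 had 117, 132 and 128 CPM in PP2AcKO and 167, 187 and 189 CPM in PP2AcWT (log2 fold change -0.53, SE 0.08, adjusted p = 0.000337). These 3 genes had separate groups. Mcm3 fell as well (log2 fold change -0.32, SE 0.06, adjusted p = 0.00208).

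Mcm7 and Mcm4 did not pass. Mcm7 averaged 147 ± 9.55 CPM in PP2AcKO and 163 ± 6.06 CPM in PP2AcWT (log2 fold change -0.15, adjusted p = 0.093), and it passed with the replicate number as a block (adjusted p = 0.000973), with upper-quartile scaling and without both libraries numbered 1. Mcm4 had 243, 218 and 226 CPM in PP2AcKO and 230.4, 216 and 215 CPM in PP2AcWT, groups that overlapped (log2 fold change 0.06, SE 0.07, adjusted p = 0.5; -0.01 with upper-quartile scaling). Levels of the subunits can be compared once divided by the length of the main transcript of each gene. Per kilobase, PP2AcKO libraries ranked Mcm4 at 63.8 ± 3.55, Mcm7 at 49.7 ± 3.22, Mcm3 at 46.9 ± 2.20, Mcm2 at 37.3 ± 2.30, Mcm6 at 36.8 ± 2.13 and Mcm5 at 21.9 ± 2.76 CPM. PP2AcWT libraries ranked Mcm6 at 79.0 ± 3.96, Mcm4 at 61.4 ± 2.43, Mcm3 at 58.4 ± 0.926, Mcm7 at 55.1 ± 2.05, Mcm2 at 53.7 ± 3.67 and Mcm5 at 39.0 ± 2.31 CPM per kilobase (SD, n = 3). Mcm6 was thus the highest subunit in PP2AcWT and within the spread of Mcm2 in PP2AcKO. The neighbours Mcm7 and Mcm3 in PP2AcKO did not differ beyond their SDs. In PP2AcWT the same held for Mcm4 with Mcm3 and for Mcm7 with Mcm2.

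**Figure D3:**
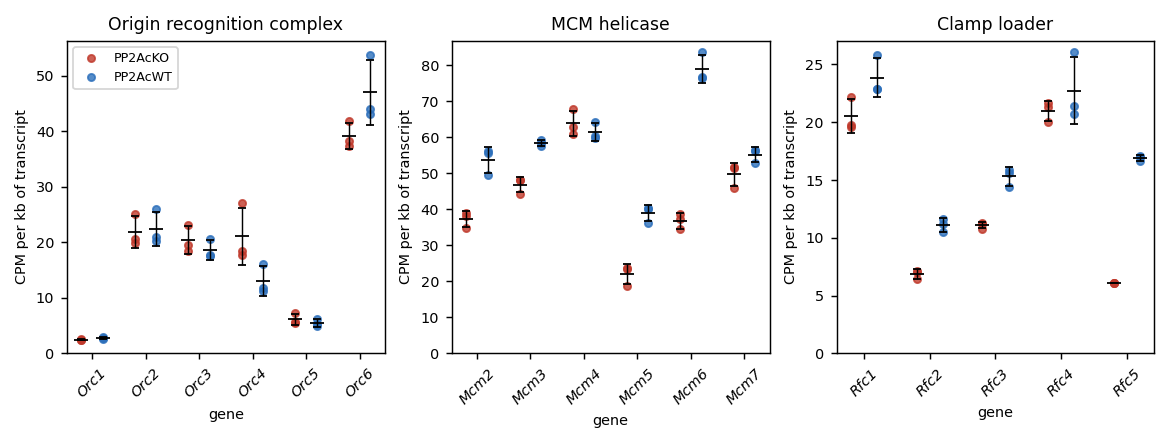
Level per library in CPM per kilobase of main transcript (y axis, from 0) for subunits of the origin recognition complex, the MCM helicase and the clamp loader (x axes), with points for libraries and bars for the mean and SD, n = 3. Mcm6 averaged 36.8 in PP2AcKO and 79.0 in PP2AcWT, and Rfc5 6.08 in PP2AcKO and 16.9 in PP2AcWT, while Orc1 stayed near 2.44 and 2.77.

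Of the 8 helicase activation genes, 5 fell and 3 did not pass. Cdc7, the kinase that phosphorylates the MCM ring, was at 7.82, 7.59 and 7.66 CPM in PP2AcKO and at 14.4, 12.5 and 14.6 CPM in PP2AcWT (log2 fold change -0.85, SE 0.10, adjusted p = 6.31e-05). Dbf4, its activating partner, did not follow it, with 111, 87.2 and 89.8 CPM in PP2AcKO and 104, 85.8 and 87.3 CPM in PP2AcWT (log2 fold change 0.06, SE 0.11, adjusted p = 0.688; -0.01 with upper-quartile scaling). Within a library there were 14.2, 11.5 and 11.7 Dbf4 counts per Cdc7 count in PP2AcKO and 7.24, 6.87 and 6.00 in PP2AcWT, ranges that do not meet.

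The GINS complex, part of the active helicase, was split as well. Gins2 had 11.2, 14.3 and 15.1 CPM in PP2AcKO and 23.1, 25.1 and 27.1 CPM in PP2AcWT (log2 fold change -0.89, SE 0.12, adjusted p = 0.000221). Exons of Gse1 on the opposite strand cover 67.3% of the Gins2 exon bases, and Gse1 went the other way, with 74.8 ± 8.66 CPM in PP2AcKO and 50.5 ± 8.22 CPM in PP2AcWT (log2 fold change 0.57, adjusted p = 0.00443). Gins2 and its neighbour thus moved in opposite directions, and the Gins2 groups were separate. Gins4 was at 25.8, 28.3 and 25.6 CPM in PP2AcKO and at 38.2, 36.0 and 37.2 CPM in PP2AcWT (log2 fold change -0.48, SE 0.08, adjusted p = 0.000466), with no overlap. Gins1 and Gins3 did not pass, with log2 fold changes of -0.19 (adjusted p = 0.137, and 0.0383 with the replicate number as a block) and 0.01 (adjusted p = 0.962; -0.06 with upper-quartile scaling). Cdc45, the cofactor that completes the running helicase, fell by 0.40 (SE 0.07, adjusted p = 0.000734). Mcm10, needed to start unwinding, fell by 0.18 (SE 0.06, adjusted p = 0.0336), a call lost without any 1 of the 6 libraries (adjusted p up to 0.129) and with no filter on low counts.

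Licensing control moved in both directions. Gmnn, which encodes geminin, the inhibitor of CDT1, had 4.53, 4.54 and 4.37 CPM in PP2AcKO and 13.9, 12.5 and 14.7 CPM in PP2AcWT (log2 fold change -1.61, SE 0.10, adjusted p = 1.59e-06), or 3.05-fold lower. Cdt1, the loader it restrains, was at 90.2, 115 and 116 CPM in PP2AcKO and at 70.8, 89.4 and 85.6 CPM in PP2AcWT (log2 fold change 0.39, SE 0.12, adjusted p = 0.0198). The groups lay close together for Cdt1 and far apart for Gmnn. The Cdt1 call was lost without PP2AcKO 2, PP2AcKO 3 or PP2AcWT 1, with adjusted p up to 0.0719, and the log2 fold change ran from 0.29 to 0.51 over all alternatives. The Cdt1 groups did not overlap, so any pairing of libraries puts PP2AcKO higher, as in the 3 same-numbered pairs. Libraries numbered 1 were the low ones for Cdt1 in both groups.

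Within a library, there were 0.0502, 0.0395 and 0.0376 Gmnn counts per Cdt1 count in PP2AcKO and 0.196, 0.139 and 0.171 in PP2AcWT, a ratio of means of 0.251. Gmnn lies on chromosome 13, 24751845 to 24761923, minus strand, and Cdt1 on chromosome 8, 122568015 to 122573554, plus strand, both on GRCm38. Cdc6, which works with CDT1 in loading, had 20.5, 19.99 and 18.3 CPM in PP2AcKO and 27.9, 28.5 and 28.9 CPM in PP2AcWT (log2 fold change -0.54, SE 0.08, adjusted p = 0.000303). It moved with Gmnn and not with Cdt1, and its groups were separate.

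**Figure D4:**
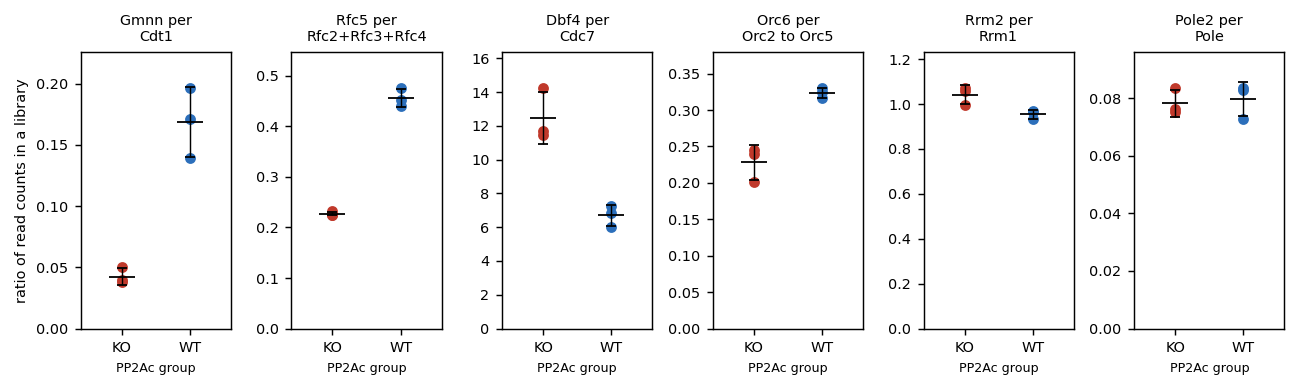
Ratio of read counts of a gene to its partner or partners within each library (y axes, from 0), with points for libraries and bars for the mean and SD, n = 3, PP2AcKO left and PP2AcWT right in each panel. The Gmnn to Cdt1 ratio averaged 0.0424 in PP2AcKO and 0.169 in PP2AcWT, while the Pole2 to Pole ratio averaged 0.0782 and 0.0796.

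The origin recognition complex had the lowest share of calls, 2 of 6 members. Its summed level was 329, 252 and 261 CPM in PP2AcKO and 296, 232 and 239 CPM in PP2AcWT. Orc4 was the member that rose, with 109.9, 71.7 and 75.1 CPM in PP2AcKO and 65.2, 45.7 and 47.9 CPM in PP2AcWT (log2 fold change 0.69, SE 0.18, adjusted p = 0.0094). Libraries numbered 1 were the high ones in both groups, and the lowest PP2AcKO library stood above the highest PP2AcWT library. Orc6, the smallest subunit, was the member that fell, with 53.8, 48.1 and 49.1 CPM in PP2AcKO and 69.1, 55.5 and 56.7 CPM in PP2AcWT (log2 fold change -0.26, SE 0.10, adjusted p = 0.0404). Its call was lost without PP2AcKO 2, PP2AcKO 3 or PP2AcWT 1, with adjusted p up to 0.133. Orc6 counts per count of Orc2 to Orc5 together averaged 0.229 in PP2AcKO and 0.324 in PP2AcWT, and the libraries of the groups did not overlap. The divisor includes Orc4, which rose, so this ratio does not describe Orc6 alone.

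Orc1, the subunit whose ATPase activity drives loading, had 7.69, 7.42 and 7.001 CPM in PP2AcKO and 9.03, 8.07 and 7.98 CPM in PP2AcWT. Its groups were separate by a narrow margin and it did not pass (adjusted p = 0.131, and 0.0453 with the replicate number as a block). Orc2, Orc3 and Orc5 did not pass, with log2 fold changes of -0.04, 0.13 and 0.17. With the replicate number as a block, Orc3 and Orc5 passed as higher (adjusted p = 0.0143 and 0.0355), and Orc2 did not. Orc2 changed sign without PP2AcKO 2, PP2AcKO 3 or PP2AcWT 1. Exons of Nif3l1 on the opposite strand overlap 29.8% of its exon bases, and Nif3l1 averaged 46.7 ± 0.861 CPM in PP2AcKO and 28.0 ± 1.44 CPM in PP2AcWT. Per kilobase of main transcript, Orc6 was the highest subunit in both groups, at 39.1 ± 2.37 CPM in PP2AcKO and 46.96 ± 5.85 CPM in PP2AcWT, and Orc1 the lowest, at 2.44 ± 0.115 and 2.77 ± 0.192 CPM.

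The libraries numbered 1 differed from their group in the same sense for most members. Relative to the mean of libraries 2 and 3, the library numbered 1 lay on the same side in both groups for 42 of the 47 genes and on opposite sides for 5. Orc4 was 1.497-fold that mean in PP2AcKO and 1.39-fold in PP2AcWT, and Pold1 was 0.682-fold and 0.738-fold. For Orc4, Pold1, Pold2 and Cdt1 the groups still did not overlap.

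Other genes of the pathway, 58 in 5 lists, were grouped by function. These lists were drawn up with earlier results of these data known, so they are no independent check on the 47 members. Of the 58 genes, 39 fell (67.2%), 6 rose and 13 did not pass, with a median log2 fold change of -0.47. Over all tested genes 32.1% were lower and 31.9% higher. In the list of origin firing and fork protection 8 of 15 fell and 2 rose. Clspn, the checkpoint mediator claspin, averaged 26.5 ± 0.844 CPM in PP2AcKO and 47.5 ± 2.12 CPM in PP2AcWT, Wdhd1, which tethers polymerase alpha to the helicase, 19.1 ± 0.767 and 35.7 ± 2.31 CPM, and Topbp1, an activator of origin firing, 94.7 ± 7.26 and 168 ± 8.27 CPM. In the list of other clamp loaders and accessory polymerase subunits 8 of 11 fell and 1 rose. Chtf18 and Dscc1, subunits of the alternative loader that serves cohesion, fell by 1.70 and 1.42 on the log2 scale (SE 0.15 each), and Dna2, a nuclease of long flaps, by 1.18 (SE 0.13).

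In the list of chromatin assembly and maintenance methylation 4 of 7 fell and 2 rose. Dnmt1, the maintenance methyltransferase, averaged 139 ± 5.62 CPM in PP2AcKO and 279.9 ± 10.8 CPM in PP2AcWT, its recruiter Uhrf1 60.4 ± 6.58 and 167 ± 17.8 CPM, and Chaf1a, a subunit of the histone chaperone CAF-1, 72.5 ± 3.92 and 129 ± 3.16 CPM. Exons of Ubxn6 on the opposite strand overlap 52.5% of the Chaf1a exon bases, so reads of that pair may not be told apart. In the list of pyrimidine and dNTP enzymes 10 of 14 fell and 1 rose. Cad, which starts pyrimidine synthesis, averaged 95.2 ± 10.5 CPM in PP2AcKO and 228 ± 28.3 CPM in PP2AcWT, and Dctd, the dCMP deaminase, 18.0 ± 0.536 and 37.8 ± 0.607 CPM. Samhd1, which breaks dNTPs down, fell too, with 52.2 ± 1.51 CPM in PP2AcKO and 88.2 ± 2.64 CPM in PP2AcWT.

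Of 11 genes of purine synthesis 9 fell, 0 rose and 2 did not pass. Impdh2, the enzyme that commits IMP to guanine nucleotides, averaged 76.8 ± 5.29 CPM in PP2AcKO and 166 ± 4.44 CPM in PP2AcWT. Gart and Adsl, enzymes of the de novo pathway, fell by 1.02 and 0.97 on the log2 scale (SE 0.07 and 0.08). Exons of Gm15964 on the opposite strand overlap 19.7% of the Gart exon bases. Genes of the 5 lists that rose, picked out after their values were seen, included Recql4, Asf1a, Pold4, Mcmbp and Chaf1b. Exons of Mcm9 on the opposite strand overlap 48.05% of the Asf1a exon bases, so reads of that pair may not be told apart. Recql4, a helicase of the RecQ family, had the highest fold change, with 55.1 ± 8.55 CPM in PP2AcKO and 24.0 ± 2.13 CPM in PP2AcWT (log2 fold change 1.20, SE 0.12, adjusted p = 3.41e-05), while Chaf1b rose by 0.30 with groups that overlapped, a call that did not hold in 6 of 13 alternatives.

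The E2F factors and their partners, 10 genes, were mixed: 7 fell, 2 rose and 1 did not pass, beside 32.1% of all tested genes lower and 31.9% higher. E2f8, an atypical repressor, averaged 23.0 ± 1.08 CPM in PP2AcKO and 41.8 ± 1.75 CPM in PP2AcWT, and Tfdp1, the dimer partner of the activators, 126 ± 4.17 and 199 ± 6.44 CPM. Exons of Gm2788 on the opposite strand overlap 11.2% of the E2f8 exon bases. E2f1, an activator, was among those that fell, with 72.6 ± 12.4 CPM in PP2AcKO and 97.3 ± 15.1 CPM in PP2AcWT and groups that overlapped (log2 fold change -0.42, SE 0.15, adjusted p = 0.0311). The members that rose were 2 other activators, E2f3, with 76.7 ± 0.62 CPM in PP2AcKO and 48.3 ± 0.154 CPM in PP2AcWT (log2 fold change 0.67, SE 0.06, adjusted p = 1.57e-05), and E2f2, with 10.1 ± 1.61 and 6.36 ± 0.535 CPM. Among 20 genes of mitosis set beside the replication genes, 18 fell, 0 rose and 2 did not pass, with a median log2 fold change of -1.09. At least 2-fold lower were 11 of them, against 10.7% of all tested genes. The difference between the mitosis and the replication medians was not tested.

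**Figure D5:**
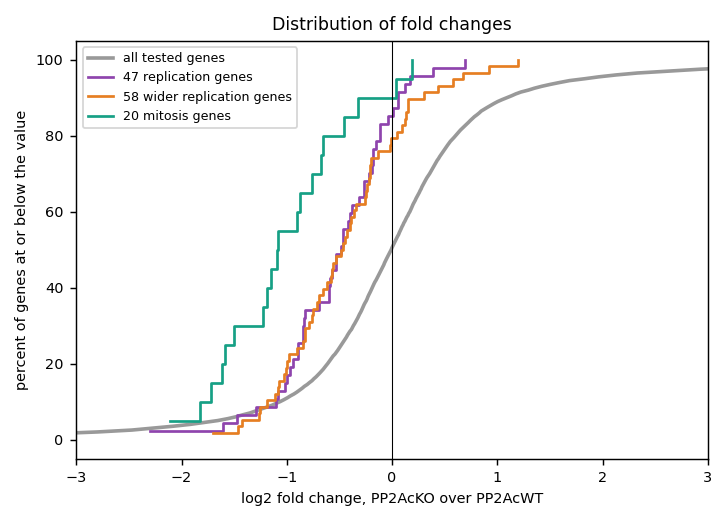
Percent of genes at or below each log2 fold change of PP2AcKO over PP2AcWT (x axis) for all tested genes, the 47 replication genes, the 58 wider replication genes and 20 mitosis genes. The replication curve, with a median of -0.48, and the wider curve, at -0.47, run together left of the curve of all genes, at -0.01, and the mitosis curve, at -1.09, lies further left.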

How the data were processed

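The labels describe 6 poly(A) RNA libraries of SB28, grouped by title and genotype. The authors deposited raw read counts per gene symbol, with 1 column per library. Per the submitters' processing notes, which give no roles, the builds were mm10 and GRCm38 and the tools limma 3.48.3, edgeR 3.34.0, HTSeq 0.11.2, STAR 2.7.1a and fastp 0.20.0. The counts carry no molecular identifiers.

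Low counts were removed with filterByExpr (edgeR 4.0.16 in R 4.3.3), libraries were scaled by TMM and groups compared with the quasi-likelihood F-test, PP2AcKO over PP2AcWT, with Benjamini-Hochberg adjustment over all 14877 tested genes and a threshold of 0.05. The test was tried on simulated data first. CPM is the count scaled to library size times TMM factor. Standard errors (SE) are log2 fold changes divided by the root of F. Positions, exon overlaps and the longest APPRIS principal transcript came from GENCODE M21 on GRCm38, and promoters from RefSeq on GRCm38.p6.

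The members and lists were chosen with earlier results of these data known. Per-library values are given, in each step, for the 3 members of smallest adjusted p and for any past the threshold that went against their step, and also for Mcm4, Dbf4 and Pcna, chosen after their values were seen. From each other list up to 3 genes with the smallest adjusted p are named. Same-numbered libraries deviated from their group means together, with correlations of 0.443, 0.161 and 0.15 over the tested genes. PP2AcKO 2 with PP2AcWT 3 and PP2AcKO 3 with PP2AcWT 2 gave 0.189 and 0.15, so number 1 alone stands out. All same-numbered correlations were over 0.1 and the titles give the numbers, so a fit with the number as a block stands beside the results it changes. No pair of libraries of a group agreed within sampling noise, since chi-square divided by its degrees of freedom was 3.41 or more. It was 3.41 in PP2AcKO and 4.61 in PP2AcWT for libraries 2 with 3. Pairs with library 1 gave 42.1 and 48.4 in PP2AcKO and 29.7 and 40.8 in PP2AcWT. Alternatives were other scalings, DESeq2 1.42.0, no filter, a test against a fold change of 1.5, the block, and leaving libraries out.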

Additional observations from a re-analysis of the deposited data

How the results depend on the processing

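Against a fold change of 1.5, 0 replication genes were higher and 15 lower, and of the wider genes 2 were higher and 19 lower, while 13.5% of all genes were higher and 13.2% lower. With the replicate block, 4 replication genes were higher, beside 38.5% of all genes. Leaving out 1 library gave 1 to 2 replication genes higher, with 1 without PP2AcKO 2, PP2AcKO 3 or PP2AcWT 1. It gave 30 to 33 lower, and 35 to 41 lower among the wider genes. In the same fits 27.6% to 31.3% of all genes were lower and 28% to 32.5% higher. With upper-quartile scaling the log2 fold changes of Mcm4, Gins3 and Dbf4 were -0.0095, -0.059 and -0.0098. Leaving out 1 library, Orc2 ran between -0.137 and 0.0863, above 0 without PP2AcKO 2, PP2AcKO 3 or PP2AcWT 1. Gins3 ran between -0.026 and 0.0527, below 0 without PP2AcKO 1, PP2AcWT 2 or PP2AcWT 3. Dbf4 ran between -0.0525 and 0.153, below 0 without PP2AcKO 1. None of these 4 genes passed in any setting, and the cause was not tested. DESeq2 gave 34 replication genes lower and 2 higher, beside 31.6% and 32.3% of all genes. The block added Orc1, Mcm7, Gins1 and Pcna to the members that fell and Orc3 and Orc5 to those that rose, and it ended no call. The median over members stayed between -0.55 and -0.45. With upper-quartile scaling 44.8% of the genes called in either direction were higher, against 49.9% with TMM. Of all tested genes 28.9% were called higher with upper-quartile scaling and 31.9% with TMM.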
